A study of Bos taurus with 6 samples.

Results

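The CITED genes encode small transcriptional co-regulators, and CITED1, CITED2 and CITED4 were measured here in granulosa cells of dairy cows given folic acid with vitamin B12 or saline. They are 3 of 15229 genes named by the platform annotation. Members were all probes carrying one of these symbols, 4 of 43794 gene probes, of which 2 belong to CITED1, 1 to CITED2 and 1 to CITED4. CITED1 was chosen by its measured ratio, for a steady rise over all 6 arrays, so the size, sign and steadiness of that ratio are described and not tested. CITED2 and CITED4 were taken as its relatives for comparison.

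The vitamin group received 320 mg of folic acid together with 10 mg of vitamin B12, and the saline group 0.9% saline, from 3 weeks before calving until day 57 ± 2 after it. Granulosa cells, which surround the oocyte and make estradiol from androgen, came from follicles of 12 mm or more close to ovulation. They were collected by ovarian puncture 66 ± 2 h after the last of 2 prostaglandin injections, on day 57 ± 3 or in some cases on day 71 ± 3. Each of 6 arrays carried vitamin RNA in one dye and saline RNA in the other, and vitamins were in Cy5 on 3 of them. By the series design these are 2 arrays of opposite dye for each of 3 biological replicates. Whether a replicate holds cells of 1 cow or of several is not stated, nor are breed and age, so the p-values measure the spread between these samples only.

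CITED proteins bind no DNA by themselves. Through an acidic C-terminal region they attach to the CBP and p300 acetyltransferases, and they bring these enzymes to transcription factors such as the AP-2 family. CITED1 is also known to work with SMAD4 and with estrogen receptor alpha. CITED2 competes with the hypoxia factor HIF1A for the same pocket of CBP and p300, is itself induced by hypoxia, and in mice acts with WT1 and NR5A1 in the forming adrenal gland and gonad. CITED4 also binds AP-2 factors and CBP and p300 and can dampen HIF1A.

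The samples differed in their levels of cell type markers, and 1 stood apart. The saline sample of replicate 1 had a summed normalised intensity of 36200 over 11 granulosa markers, against 192000 in the vitamin sample of the same replicate and 184000 to 243000 in the samples of replicates 2 and 3. In that saline sample INHA, an inhibin subunit, read 3670 against 76100 with vitamins, and the macrophage gene CD163 read 12200 against 295. Not all markers followed: the granulosa marker GJA1 read 13100 with saline against 9400, and the leukocyte marker PTPRC 1270 against 1160. The granulosa sums are led by INHA and INHBA, whose probes were saturated in 1 and 4 of 12 readings. Normalised intensity here is the dye intensity after background correction, loess within arrays and quantile scaling of the average intensity between arrays. It has no unit and is compared only within a probe or a fixed sum. Of the granulosa markers, FOXL2 was above the negative controls in 4 of 12 readings and the other 11 were tested. The endothelial marker PECAM1, the oocyte growth factor GDF9 and the red cell enzyme ALAS2 were above them in 0 of 12. Other markers of the same lists, CLDN5, FIGLA and HBA, were above them in 12 of 12. Of the 8 endothelial, 7 oocyte and 6 red cell markers listed, 4, 4 and 3 were tested, so single markers do not settle whether these cells were present. In bulk samples, fewer cells of a type and less RNA per cell cannot be told apart. Detection ranged from 53.0% to 68.7% of the gene probes in a channel, and 26688 probes were tested.

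CITED1 was higher with vitamins on every array. By its brighter probe, the log2 ratio of vitamins over saline was 1.92 and 2.58 on the 2 arrays of replicate 1, 2.22 and 1.36 on those of replicate 2, and 1.80 and 2.28 on those of replicate 3. All 6 values lay above 1, a doubling. Averaged within pairs, the ratios were 2.25, 1.79 and 2.04 in replicates 1, 2 and 3, with a mean of 2.03 ± 0.23 (SD, n = 3), or 4.07-fold. These are the values CITED1 was chosen for, and no test is given.

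For such a pattern, the counts over all probes give the background. Of 26605 tested probes with a value on all arrays, 1033 (3.88%) were above 0 on all 6 arrays and 1132 (4.25%) below 0 on all 6. Both CITED1 probes are among those above 0, which for the gene is what it was chosen for. A mean ratio of at least 1, which both also reached, was found for 0.832% of tested probes. A ratio of at least 1 on all 6 arrays was reached by 9 probes (0.0338%), of which 7 carry the names of 5 genes, and CITED1 is one of these. In the other direction, 34 probes (0.128%) had a ratio of -1 or lower on all 6. The mean ratio of the brighter CITED1 probe ranked 16 of 26688, and its lowest array ranked 4. Both ranks follow from the choice of CITED1 and are description only. The fit across all probes called 0 probes in either direction (0%) by limma at an adjusted p of 0.05, and 1244 (4.66%) had an unadjusted p under 0.05.

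The level of CITED1 differed between replicates. Its normalised intensity was 1590, 6640 and 3690 in the vitamin samples of replicates 1, 2 and 3, and 336, 1920 and 899 in the saline samples. Replicate 1 was the lowest and replicate 2 the highest in both groups. The vitamin sample of replicate 1 (1590) was below the saline sample of replicate 2 (1920), so the levels of the groups overlapped although every array had vitamins above saline. Over single readings, the lowest, median and highest intensities were 1412, 3732 and 7593 with vitamins and 301.5, 943 and 2263 with saline. The log2 level had an SD of 1.03 over the vitamin samples and of 1.26 over the saline samples, where the ratio, chosen for being steady, had 0.23. Of all tested probes, 1.13% had a level SD at least as large in both groups. All 6 vitamin readings lay above all 6 saline readings for 0.466% of tested probes and below them for 0.556%, and 0 of the CITED probes were among either.

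**Figure D1:**
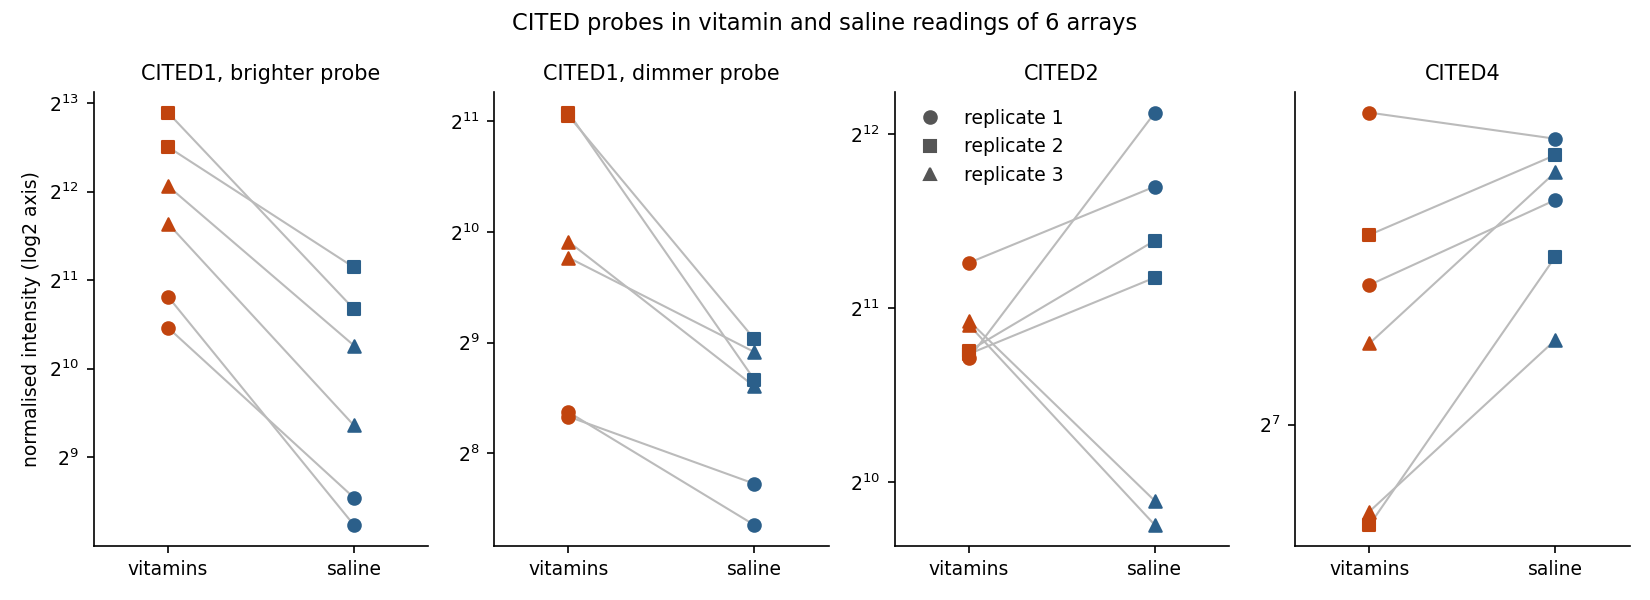
Normalised intensity (log2 axis, scaled separately in each panel) of the 4 CITED probes in vitamin and saline readings; grey lines join the 2 channels of an array and marker shape gives the replicate. Every CITED1 line falls towards saline while its height differs between replicates, and the CITED2 lines meet near one level with vitamins and fan out with saline.

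The second CITED1 probe was dimmer and also above 0 on all 6 arrays. Its log2 ratios were 0.61 and 1.02 in replicate 1, 2.02 and 2.41 in replicate 2, and 1.31 and 0.85 in replicate 3. The mean was 1.37 ± 0.74 (SD, n = 3), or 2.58-fold, so the probes gave the same direction and a size that differed by 0.66 on the log2 scale. They also ranked the replicates differently, since replicate 1 had the highest ratio by the brighter probe and the lowest by the dimmer one. In replicate 1 the dimmer probe lay close to the detection limit. Its raw saline intensities there were 270 and 179, where the limits set by the negative controls were 208 and 176, while its raw vitamin intensities were 367 and 483 with limits of 227 and 288. Both probes were above the negative controls in all 12 readings.

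Marker levels are set beside the CITED1 ratio here. Without replicate 1, whose saline sample stood apart, the mean log2 ratio of the brighter CITED1 probe was 1.91, and on the slide of replicate 1 alone it was 2.25. The median log2 ratio of the 11 granulosa markers was 0.94 in replicate 1, -0.11 in replicate 2 and 0.70 in replicate 3. Their sums are led by INHA and INHBA, whose probes were saturated in 1 and 4 readings, so no fold is given for them. In the same 3 replicates the 15 leukocyte markers tested summed to 4860, 7500 and 5850 with vitamins and to 48800, 2540 and 4370 with saline. Of the 20 listed leukocyte genes, ITGAM was above the negative controls in 0 of 12 readings, and PTPRC, CD68, CD74 and C1QB in 12 of 12. The 6 epithelial markers summed to 53500, 61200 and 2280 with vitamins and to 68000, 1410 and 1830 with saline. Aromatase (CYP19A1), the estradiol-making enzyme of granulosa cells, had intensities of 2040, 53200 and 27600 with vitamins and of 169, 12200 and 14600 with saline. It was lowest in replicate 1 in both groups as CITED1 was, but with saline its order over replicates 2 and 3 was the opposite. Its 3 probes had mean log2 ratios between 0.10 and 2.21. FSHR, AMH and GJA1 were also lowest in replicate 1 in both groups, while INHA and INHBA were highest there with vitamins. The part of these markers in the CITED1 ratio was not tested.

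The brighter CITED1 probe averaged 1.98 with vitamins labelled by Cy5 and 2.07 with vitamins labelled by Cy3. The dye effect, taken as the distance of the Cy5 orientation from the mean of both, was -0.05. The dimmer probe averaged 1.31 and 1.43 in these orientations, a dye effect of -0.06. As a gene steady over all arrays was chosen, its dye effect is given without a test.

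**Figure D2:**
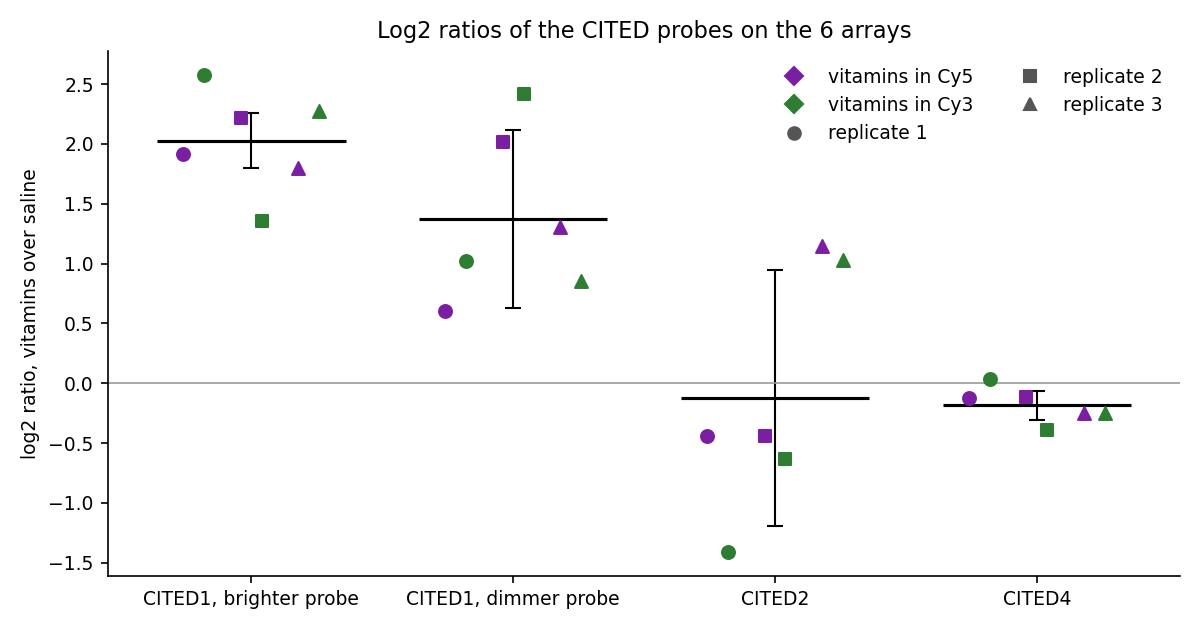
Log2 ratio of vitamins over saline for each CITED probe on each of the 6 arrays, coloured by the dye that held the vitamins and shaped by replicate; the bar is the mean of the 3 replicate ratios and the whisker their SD. CITED1 is above 0 throughout, CITED2 is below 0 in replicates 1 and 2 and above 0 in replicate 3, and CITED4 lies near 0.

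CITED2 showed no common direction. Its log2 ratio was -0.44 and -1.41 on the arrays of replicate 1, -0.44 and -0.63 on those of replicate 2, and 1.15 and 1.03 on those of replicate 3. The sign was the same on both arrays of each pair and differed between replicates. As the pairs were chosen by the correlation of array ratios, agreement within a pair is favoured. With the next best pairing, the CITED2 ratios ran from -0.92 to 0.30, with 2 of 3 above 0. The replicate ratios of -0.92, -0.54 and 1.09 had a mean of -0.12 ± 1.07 (SD, n = 3), which did not pass limma's test over all probes (adjusted p = 1; 95% interval from -1.32 to 1.08). The interval includes a difference of more than 2-fold in either direction, so these replicates do not show that CITED2 was alike in the groups. Of all tested probes, 6.75% had a larger SD of the ratio. The mean became 0.28 when replicate 1 was left out, 0.08 without replicate 2 and -0.73 without replicate 3.

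The spread of the CITED2 ratio lay on the saline side. The normalised intensity of CITED2 was 2030, 1720 and 1930 in the vitamin samples of replicates 1, 2 and 3, a range of 1.18-fold. In the saline samples it was 3850, 2490 and 907, a range of 4.24-fold. These are means of 2 arrays, and the 2 vitamin readings of replicate 1 were 2453 and 1678, further apart than the vitamin means of the replicates. The log2 level had an SD of 0.12 with vitamins and of 1.07 with saline, where the medians over all tested probes were 0.29 and 0.26. Of 26688 tested probes, 48 (0.18%) had an SD as small with vitamins together with one as large with saline, and 32 (0.12%) had the reverse arrangement at the same limits. With 3 samples a group this is a description. The saline sample with the most CITED2 was that of replicate 1, whose leukocyte markers summed to 48800, and the one with the least was that of replicate 3, with 4370. The saline sample of replicate 2 had 2540 and an intermediate CITED2 level, so the order over the samples was not the same, and the part of these markers was not tested. The dye effect on CITED2 was 0.21 and did not pass limma's test over the 3 pairs (adjusted p = 0.228). In that test 6.6% of probes were called, and 24.1% had an unadjusted p under 0.05.

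CITED4 was at the edge of detection. Its probe was above the negative controls in 1 of 6 vitamin readings and 3 of 6 saline readings, under the 6 of 12 needed for testing. The raw intensities were 98 to 306 with vitamins and 128 to 222 with saline, and the detection limits ran from 117 to 288 over the channels. The log2 ratios were -0.12, 0.04, -0.12, -0.39, -0.25 and -0.25 on arrays 1 to 6, with a mean of -0.18 ± 0.12 (SD, n = 3). The lowest, median and highest normalised intensities were 115.6, 143 and 175.7 with vitamins and 139.5, 163 and 171.1 with saline, so the readings overlapped. At this signal a difference in CITED4 was not detectable, and the small ratio does not show that its RNA was alike in the groups.

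**Figure D3:**
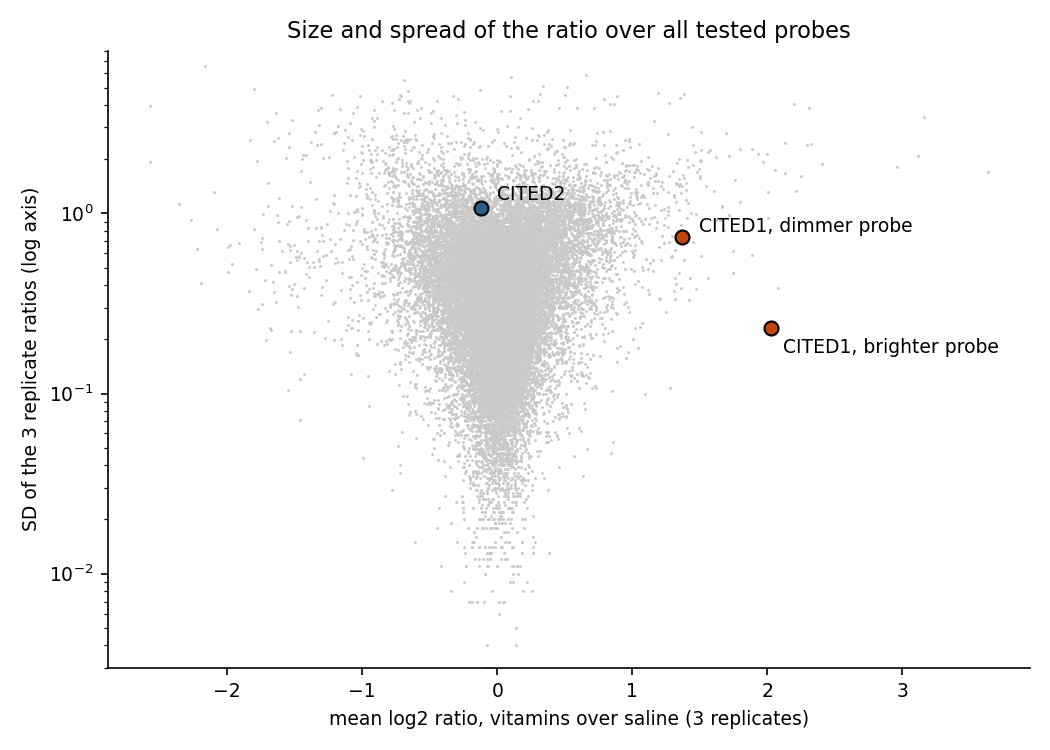
Mean log2 ratio of vitamins over saline against the SD of the 3 replicate ratios (log axis) for all 26688 tested probes, with the CITED1 and CITED2 probes marked. The brighter CITED1 probe combines a mean of 2.03 with an SD of 0.23, while CITED2 lies near 0 with an SD of 1.07.

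The genes with the pattern closest to that of CITED1 were found by the distance between the 6 array ratios, over 10909 other genes with 1 probe each. They were PPM1K, a mitochondrial phosphatase of branched-chain amino acid breakdown, at a distance of 1.42, APOA1, the apolipoprotein that shapes high-density lipoprotein, at 1.43, and P3H2, a collagen prolyl hydroxylase, at 1.44. ADAMTS1, a matrix protease that supports ovulation in mice, followed at 1.80, and LTF, the iron-binding lactoferrin, at 1.92. The median distance from CITED1 over all genes was 5.16, and the distance between the 2 probes of CITED1 was 2.75, larger than that to any of these 5 genes. PPM1K had ratios of 2.46, 1.30 and 1.48 in replicates 1, 2 and 3. APOA1 had 1.88, 1.83 and 2.52, and ADAMTS1 had 2.59, 1.41 and 1.04. As these genes were picked for likeness to a chosen gene, no test is given.

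The nearest to CITED2 were RGS17, a regulator that shortens G-protein signals, at a distance of 0.38, MMUT, the methylmalonyl-CoA mutase that uses vitamin B12 as its cofactor, at 0.51, and TCF7, a transcription factor of the Wnt pathway, at 0.67. MMUT had log2 ratios of -0.80, -0.61 and 0.97 in replicates 1, 2 and 3. RGS17 had -1.02, -0.45 and 1.22, and TCF7 had -1.14, -0.56 and 0.74. The median distance from CITED2 was 2.51. CITED4, not being tested, was given no such genes.

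Of the 16 listed partners that CITED proteins bind, 10 were tested, and by limma 0 were called in either direction against 0% of all probes. Their median log2 ratio was -0.23, where that of all tested genes was 0.01. A mean above 0 was found for 3 of them and a mean below 0 for 7, against 51.2% of all named genes above 0. In 0 of the 10 was the ratio above 0 in all 3 replicates (background 12.8%) and in 2 it was below 0 in all 3 (background 12.4%). The acetyltransferase CREBBP, a main docking partner of the family, was at -0.31 ± 0.45, and its paralogue EP300 was not analysed here. SMAD4, the shared SMAD of TGF-beta signalling, had the lowest unadjusted p of the list (0.0955). It was at -0.62 ± 0.64 by its brightest probe, with replicates of -0.24, -1.35 and -0.26 and its 3 probes between -0.62 and -0.03. SMAD2, a receptor-activated SMAD, was at -0.48 ± 0.60 with its other probe at -0.18.

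Several partners of CITED1 were dim. AP-2 alpha (TFAP2A) was at 0.00 ± 0.17 and above the negative controls in 4 of 6 readings of each group, and AP-2 gamma (TFAP2C) was above them in 1 of 6 readings of each group by its brightest probe. Estrogen receptor alpha (ESR1), with which CITED1 can act, was above them in 1 vitamin reading and 0 saline readings of 6, and estrogen receptor beta (ESR2), the main form in granulosa cells, in 3 of 6 of each group, with a ratio of -0.15 ± 0.19. Of the factors tied to CITED2, NR5A1, the steroidogenic factor, was at -0.09 ± 0.22 and WT1 at 0.27 ± 0.50, with its 3 probes between -0.03 and 0.27. PPARG, a lipid-sensing nuclear receptor, had -2.27, -1.42 and 0.61 in replicates 1, 2 and 3, a mean of -1.03 ± 1.48. CITED2 was likewise below 0 in replicates 1 and 2 and above 0 in replicate 3, and so were CREBBP and ESR2. A link between these genes and CITED2 was not tested.

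Among 10 listed HIF factors and their regulators, 7 were tested and 0 were called, with a median log2 ratio of 0.04 that was -0.11 without replicate 1 and -0.09 with median centring. HIF1A, the competitor of CITED2 for CBP and p300, was at 0.04 ± 0.77, with 0.81, -0.74 and 0.05 in the 3 replicates. EPAS1, its relative, was at 0.05 ± 0.17 and their partner ARNT at -0.16 ± 0.13. EGLN2, a prolyl hydroxylase that marks HIF for breakdown, was at 0.51 ± 0.64, with the smallest unadjusted p among the 7 (0.146). The hypoxia-induced EGLN3 had -2.71, 0.31 and -0.29, with a mean of -0.90 that became 0.01 without replicate 1.

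All 20 listed hypoxia targets were tested, and 0 were called. Their median log2 ratio was -0.07, with 7 means above 0 and 13 below, against 51.2% of all named genes above 0. In all 3 replicates, 0 genes were above 0 (background 12.8%) and 4 were below 0 (background 12.4%). BNIP3, a mitophagy receptor, was at -0.78 ± 0.49 (unadjusted p = 0.0274) and LDHA, lactate dehydrogenase A, at -0.77 ± 0.75 with its other probe at -0.78. VEGFA, the growth factor of blood vessels, was at -0.07 ± 0.70. The median of the list was -0.18 in replicate 1, -0.12 in replicate 2 and 0.00 in replicate 3.

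The list of genes responsive to or carrying TGF-beta signals held 20 symbols, with CCN2 also under its older symbol CTGF. Of these, 12 were tested and 0 were called. Their median log2 ratio was -0.04, with 6 means on either side of 0. In all 3 replicates, 1 gene was above 0 (background 12.8%) and 2 were below 0 (background 12.4%). The 2 lowest unadjusted p-values were those of ID3 (0.0435) and ID2 (0.0438), inhibitors of basic helix-loop-helix factors. ID3 was at -1.05 ± 0.87 by its brightest probe, with its 5 probes, 4 of them tested, between -1.05 and 0.17. ID2 was at -0.71 ± 0.53. All errors in these 4 lists are SDs of 3 replicate ratios, and the adjusted p was 1 by limma for each of their tested genes named here.

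**Figure D4:**
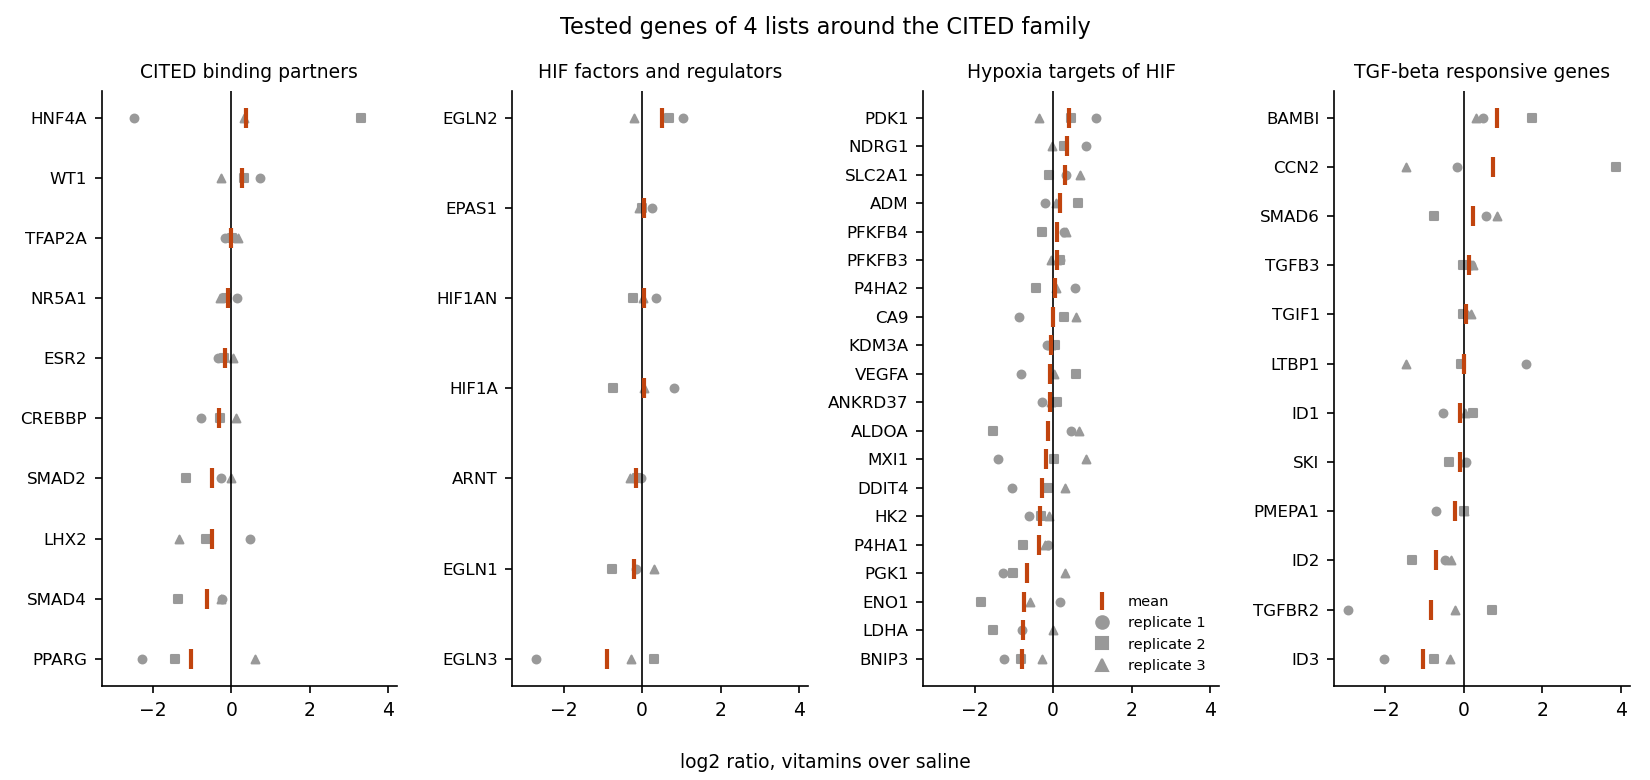
Log2 ratio of vitamins over saline for the tested genes of the 4 lists; red bars are means and grey symbols the 3 replicates. Most means lie within 1 of 0 and the replicates of many genes fall on both sides of it.

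**Figure D5:**
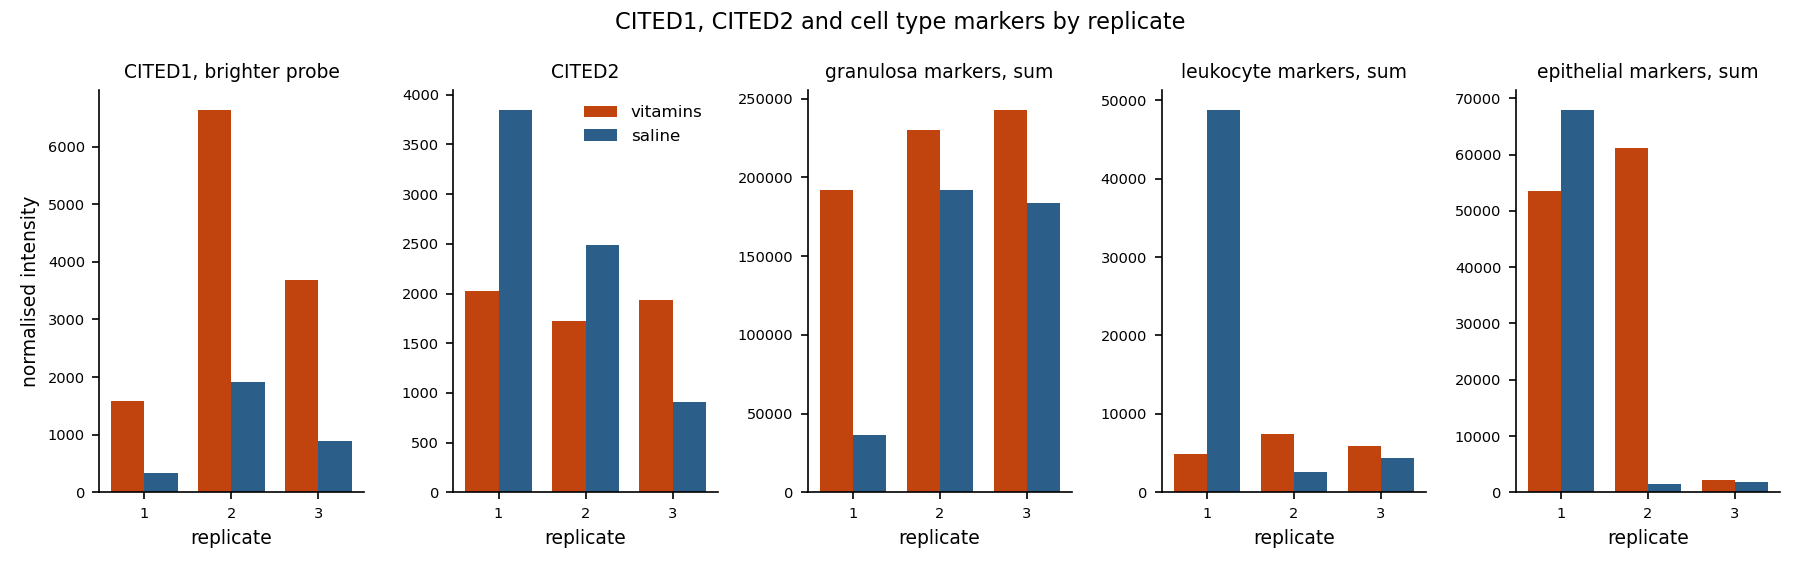
Normalised intensity of the brighter CITED1 probe and of CITED2, and summed intensities of 11 granulosa, 15 leukocyte and 6 epithelial markers, in the vitamin and saline samples of each replicate (mean of 2 arrays). CITED1 is higher with vitamins in each replicate, and the saline sample of replicate 1 has the lowest granulosa sum and the highest leukocyte sum.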

How the data were processed

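Scanner output was used. It holds for every spot the median intensity of the Cy3 and Cy5 channels and of the local background, per the file headers. A log2 ratio table by the authors was also deposited, and how it was made is unknown here. Its columns correlated at 0.815 to 0.95 with the scanner ratios turned to vitamins over saline, which gives its direction and log2 scale, with slopes of 0.633 to 0.973 and medians of -0.018 to 0.015. It served as an alternative. Per the labels' protocols, RNA was amplified before labelling, which can distort the ratios of both arrays of a pair alike.

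In R 4.3.3, limma 3.58.1 corrected the background (normexp, offset 50) and normalised each array by loess, with control spots at weight 0 and ignored spots (2 to 71 an array) left out. A reading counted as detected above the mean plus 2 SD of 153 negative controls, and probes with 6 or more of 12 readings detected entered the test. The labels do not name the dye-swap pairs, so arrays of opposite orientation were paired to give the largest summed correlation of their deviations: arrays 1 and 2, 3 and 4, 5 and 6 (sum 2.26, next best 0.698). The 3 pair means were tested against 0 by lmFit and eBayes (two-sided), and p-values were adjusted by Benjamini and Hochberg's method across 26688 probes. A gene's value is that of its brightest tested probe. Precision is limited by how few arrays there are.

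The platform annotation gave 1 symbol for 21790 probes and none for 22004, and 1524 symbols were updated through RefSeq synonyms. Sequences and coordinates were not used here. Members and lists were chosen with earlier results of these data known. Genes named besides the members are a fixed set of partners and targets, the 2 lowest unadjusted p in each list, and the genes nearest by Euclidean distance (5 for CITED1, 3 for CITED2). The fit was tested on simulated data. Alternatives covered background, normalisation, filter, pairing, slide, dye, probe and each replicate left out.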

Additional observations from a re-analysis of the deposited data

How the results depend on the processing

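The CITED1 ratio stayed within 1 SD of 2.03 under the 18 alternatives that kept its brighter probe. It ran from 1.90 with median centring to 2.25 on the slide of replicate 1, with 1.91 to 2.14 when a replicate was left out. The filter changes, the next pairing, the dye term with a pair block and the intensity trend cannot change this mean. Leaving out replicate 1 and keeping the slide of replicates 2 and 3 use the same samples, so the 18 are not independent. With 3 replicates, leaving 1 out, keeping the slide of replicates 2 and 3 or taking slide as a block cannot move a mean by 1 SD. For these settings, staying within 1 SD was fixed in advance. The other CITED1 probe gave 1.37. The CITED2 mean of -0.12 turned to 0.278 on the slide of replicates 2 and 3 and to 0.091 with vitamins in Cy5 only, and ranged from -0.729 to 0.278 with a replicate left out, above 0 without replicate 1 (0.278) and without replicate 2 (0.084). It passed no test under any alternative with a test (adjusted p by limma from 0.861 to 1). CITED4 was at -0.011 in the authors' deposited table and at -0.043 on the slide of replicate 1, and had no value over probes detected in all 12 readings. The CITED1 dye effect of -0.05 turned to 0.001 without background correction and to 0.295 with scaling between arrays, and ranged from -0.284 to 0.095 with a replicate left out (0.095 without replicate 1, 0.05 without replicate 3). The count of called probes by limma was 0 in the 17 alternatives that allow a test, with 609 to 3313 at an unadjusted p under 0.05.

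The partners' median was -0.479 over the 5 genes detected in all 12 readings. The HIF factor median of 0.04 turned to -0.091 with median centring, -0.105 without replicate 1 and on the slide of replicates 2 and 3, and -0.149 with vitamins in Cy3 only, and was 0.244 on the slide of replicate 1. The hypoxia median was -0.168 with median centring, -0.202 in the authors' deposited table, -0.175 with slide as a block, -0.18 on the slide of replicate 1 and 0.025 on that of replicates 2 and 3, and ranged from -0.212 to 0.025 with a replicate left out. The TGF-beta median was -0.09 with median centring, 0.006 over the 7 genes detected in all 12 readings and 0.058 on the slide of replicates 2 and 3, and ranged from -0.124 to 0.058 with a replicate left out. Where a setting holds fewer genes or samples this is part of the change, and otherwise the cause was not tested. Of 462 values of 26 other named genes, 446 stayed within 1 SD. That count includes the settings that cannot change a gene's mean and those, named above, that cannot move it by 1 SD. Dim signal limits CITED4, ESR1 and TFAP2C.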

Other observations

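Of 136 named genes with a mean log2 ratio of at least 1, 5 had an SD of the 3 ratios no larger than that of CITED1. Besides CITED1 they were AMH, the anti-Mullerian hormone of granulosa cells, at 1.01 ± 0.20, the collagen-binding receptor ANTXR2 at 1.10 ± 0.10, the phosphomannomutase PMM1 at 1.05 ± 0.18 and LOC100296627 at 1.28 ± 0.11 (SD, n = 3 each). They were picked by the values given here, after these were seen, and no test is given. Of all 10938 named genes tested, 3006 had an SD no larger than that of CITED1, so such an SD alone was common.

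In the authors' deposited table the brighter CITED1 probe had log2 ratios of 2.01, 2.53, 1.72, 2.12, 1.73 and 1.92 on arrays 1 to 6. CITED2 had -0.59, -0.99, -0.48, -0.68, 1.21 and 0.92 there. For CITED1 the 2 arrays of replicate 2 stood in the opposite order in the ratios computed from the scanner files, at 2.22 on array 3 and 1.36 on array 4.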
